A study of Mus musculus with 28 samples.

Results

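The proteasome subunits on these arrays were taken as every probe set whose annotation gives a single symbol beginning with Psma, Psmb, Psmc, Psmd or Psme, without the immunoproteasome subunits Psmb8, Psmb9 and Psmb10. This rule gave 50 probe sets for 39 genes, out of 12422 probe sets and 8251 genes in the series. By role they were 14 core subunits, 9 base subunits, 8 lid subunits, 3 chaperones of base assembly (Psmd5, Psmd9 and Psmd10), 3 activators (Psme1, Psme3 and Psme4) and 2 interactors that share only the name, Psme3ip1 and Psmc3ip. Each gene was followed through its brightest probe set, and 36 genes passed the brightness filter, being brighter than the median of the array on 2 or more arrays. The other 3, the base ATPase Psmc4, the chaperone Psmd10 and Psmc3ip, were above the array median on 0 of 28 arrays, with mean signals of 2.67, 3.37 and 3.26. Psme2, the partner of Psme1, was not usable, since its 2 probe sets carry a second symbol, Psme2b.

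The proteasome degrades proteins tagged with ubiquitin. Its core is a barrel of stacked rings, with the outer rings built from alpha subunits (Psma) that gate entry and the inner rings from beta subunits (Psmb), of which Psmb5, Psmb6 and Psmb7 cut peptide bonds. The regulatory cap has a base, with the ATPases Psmc1 to Psmc6 that unfold substrates and the scaffolds Psmd1 and Psmd2, and a lid, in which Psmd14 removes ubiquitin. The activators bind the ends of the core in place of that cap. Proteasome genes are expressed in all cells, liver included, and their levels commonly move together, and the transcription factor Nfe2l1 (NRF1) raises many of them when proteasome activity is short, through antioxidant response elements in their promoters.

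The study compared livers of WT mice and of mice null for Aag, the DNA glycosylase that removes bases alkylated by agents such as methyl methanesulfonate (MMS). Total liver RNA was hybridised to 28 Affymetrix MG-U74Av2 arrays. WT mice were untreated (3 arrays) or exposed to MMS and taken at 6 h (2), 12 h (3), 24 h (2) or 48 h (2), and Aag null mice, called Aag below, were untreated (4) or taken at 6 h (3), 12 h (2), 24 h (4) or 48 h (3). The labels give no dose, strain, age or sex, no allele beyond "null", and no statement that replicates were separate animals, so each p-value measures the spread between these samples.

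Values are log2 signals after quantile normalisation. A gene counts as higher or lower in a comparison if limma gave an adjusted p under 0.05, adjusted across all 5487 genes. The errors of differences are standard errors (SE). The number of arrays limits the precision. The arrays fell into 2 sets by their added hybridization controls: a high set (mean control signal 10.25 to 11.65) holding all 3 WT untreated arrays with Aag untreated replicates 3 and 4, and a low set (6.42 to 9.22) holding the other 23. The 3′ minus 5′ signal of Gapdh was 0.632 to 0.924 in the high set and -0.369 to 0.210 in the low set. Every WT response to MMS therefore set low-set arrays against high-set arrays, and time after MMS and array set cannot be told apart there. Arrays were called female-typical by the signal of Cyp2b9 alone, split at the largest gap between arrays. Such a split always sets some arrays apart. It marked Aag untreated replicate 3 and replicates 1 and 2 at 24 h in Aag livers. Mpg, the gene of Aag, was dim, with signals of 2.38 to 2.87 on the WT and 2.27 to 2.60 on the Aag arrays, which overlapped. Where its probes lie relative to the deletion was not stated. All 6 hepatocyte markers on the array were above the array median on all 28 arrays, with a summed signal of 61.09 to 63.04. In bulk liver RNA, fewer cells of a type and less RNA per cell cannot be told apart.

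The windows before the start sites were searched for motifs known from proteasome promoters, since most members varied together from array to array, as described below. RefSeq promoter windows (GRCm38.p6) of 250 bases before the start site were found for 33 of the 39 genes. The letters TGACNNNGC, the core of the antioxidant response element, were searched on both strands and found for 5 of these 33 genes (15.2%), against 11.5% of 27025 genes in the same table. CCAAT, searched on both strands and counted on its own whether or not it overlapped the first motif, was found for 14 of 33 (42.4%), against 37.5%. The 5 genes with TGACNNNGC were the catalytic subunits Psmb5 and Psmb6, the base ATPase Psmc6, the chaperone Psmd9 and the lid subunit Psmd12. The windows of 4 genes follow, 5′ to 3′ on the strand of the gene, with the match in capitals. Psmb5 and Psmc6 were taken because their brightest probe sets varied most between the arrays of 1 group. Psmb6 is a second catalytic subunit, whose match ends at the start site, and Psmd1 holds no match and varied little. The windows lie at chr14:54617996-54618245 (minus strand) for Psmb5, chr11:70525107-70525356 (plus) for Psmb6, chr14:45329574-45329823 (plus) for Psmc6 and chr1:86064369-86064618 (plus) for Psmd1.
Psmb5: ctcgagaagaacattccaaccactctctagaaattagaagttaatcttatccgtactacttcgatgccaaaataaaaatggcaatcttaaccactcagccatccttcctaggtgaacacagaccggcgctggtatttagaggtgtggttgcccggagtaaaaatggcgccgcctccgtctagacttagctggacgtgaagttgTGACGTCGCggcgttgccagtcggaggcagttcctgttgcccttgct
Psmb6: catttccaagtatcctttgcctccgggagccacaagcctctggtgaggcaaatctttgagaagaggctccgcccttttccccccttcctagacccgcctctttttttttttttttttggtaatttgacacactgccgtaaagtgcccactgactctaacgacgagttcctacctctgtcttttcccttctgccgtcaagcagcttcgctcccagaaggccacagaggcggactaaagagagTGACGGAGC
Psmc6: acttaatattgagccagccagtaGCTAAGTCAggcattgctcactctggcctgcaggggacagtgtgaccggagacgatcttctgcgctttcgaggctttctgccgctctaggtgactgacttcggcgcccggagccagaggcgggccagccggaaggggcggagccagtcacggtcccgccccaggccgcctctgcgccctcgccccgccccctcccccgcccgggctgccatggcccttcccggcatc
Psmd1: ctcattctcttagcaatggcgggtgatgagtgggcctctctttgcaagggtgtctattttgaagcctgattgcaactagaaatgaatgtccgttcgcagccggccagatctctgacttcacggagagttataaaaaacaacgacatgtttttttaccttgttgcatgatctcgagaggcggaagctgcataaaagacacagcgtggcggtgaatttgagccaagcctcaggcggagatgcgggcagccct
The match in Psmc6 is on the opposite strand, so that it reads GCTAAGTCA here. A match is a description of these letters and not a site of binding.

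Each array's level of the proteasome was summarised as the median, over the 36 tested members, of the log2 signal minus that gene's mean over the 28 arrays. Within single groups the summary spread widely. In WT livers at 6 h it was 0.42 on replicate 1 and -0.39 on replicate 2. In Aag livers at 6 h it was 0.44 on replicate 1, against -0.10 and -0.03 on replicates 2 and 3. Among the WT untreated arrays it ran from 0.02 to 0.14, and among the 4 Aag 24 h arrays from -0.28 to -0.04. Both 6 h arrays numbered 1 thus lay above every other array, while WT 6 h replicate 2 lay below every other.

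**Figure D1:**
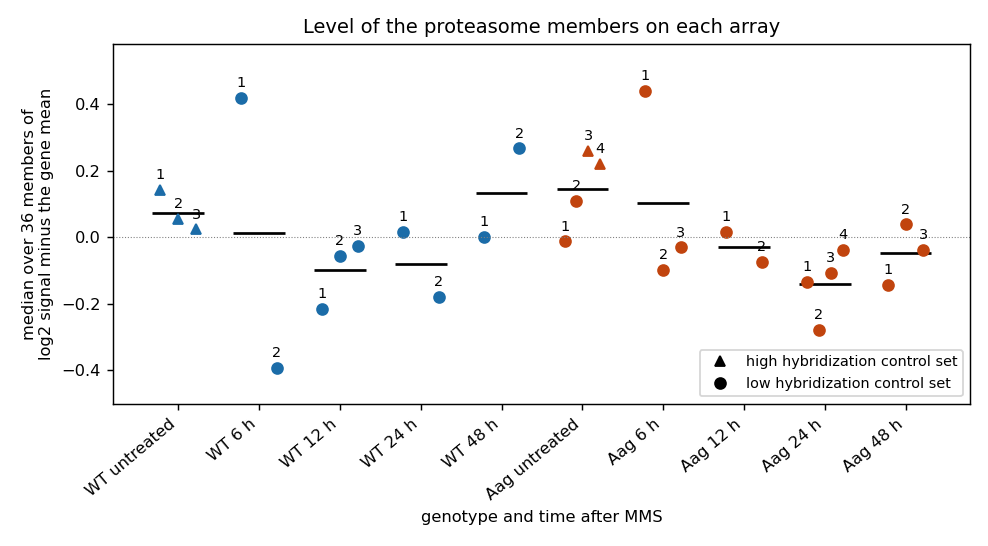
Median over 36 proteasome members of the log2 signal minus the gene's mean, one point per array with its replicate number, by genotype and time after MMS. Bars are group means, triangles mark the high and circles the low hybridization control set, and the 6 h arrays numbered 1 stand highest at 0.42 and 0.44.

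The same arrays differed in their hybridization controls. The 6 h arrays numbered 1 had the lowest control means of all, 6.42 in WT and 6.59 in Aag. Next came WT 48 h replicates 2 and 1 at 7.19 and 7.55, whose member summaries were 0.27 and 0.00. The highest control means of the low set, 9.22 and 9.13, belonged to WT 6 h replicate 2 and WT 12 h replicate 1, whose member summaries were -0.39 and -0.22. Low controls and high proteasome signals thus went together on these low-set arrays, while the high set combined high controls with summaries of 0.02 to 0.26. The part of the controls in the members' spread was not tested.

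Within the 6 h groups the difference between replicates was shared by most subunits. In WT, replicate 1 exceeded replicate 2 for 29 of 36 members (80.6%), against 44% of all genes tested, with a median difference of 0.90 against -0.12. In Aag, replicate 1 exceeded both others for 28 of 36 (77.8%), against 37.4%, with a median difference from their mean of 0.49 against -0.11. By the brightest probe sets, the catalytic subunit Psmb5 differed most, by 2.76 in WT and 1.78 in Aag. The second probe set of Psmb5 stayed between 4.99 and 5.76 on all 28 arrays. The ATPase Psmc6 followed with 2.37 and 1.27, and the ATPase Psmc2 with 2.11 and 1.53. The alpha subunit Psma3 differed by 1.92 and 1.04, and the deubiquitinase Psmd14 by 1.68 and 1.14. A few members went the other way in both genotypes: the chaperone Psmd5 by -0.49 and -0.45, and the lid scaffold Psmd3 by -0.29 and -0.34. Psmd1 differed by only -0.02 and -0.14. No test was run on these differences, and the genes were chosen for naming after their values were seen.

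**Figure D2:**
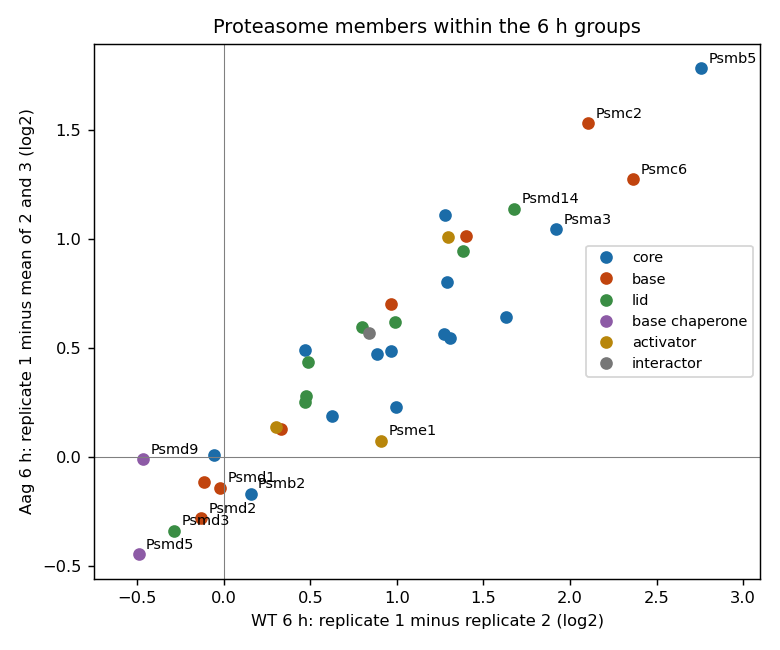
Each point is a member gene, coloured by its place in the proteasome, with its log2 difference between WT 6 h replicates 1 and 2 on the horizontal axis and between Aag 6 h replicate 1 and the mean of replicates 2 and 3 on the vertical axis. Psmb5, by its brightest probe set, lies farthest out at 2.76 and 1.78, and Psmd5 lies at -0.49 and -0.45.

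Deviations from the group means, taken over all 28 arrays, had a median correlation of 0.53 across the 630 pairs of members, against 0.01 across all pairs of the 5487 genes. These points share their arrays, so the values are a description. Core subunits had the highest median, 0.75 over 91 pairs, the lid had 0.60 over 28 and the base 0.14 over 28. Without the 6 h groups and the high set, over the 18 remaining arrays, the medians were 0.54 for all members, 0.70 for the core, 0.63 for the lid and 0.34 for the base, against -0.00 for all genes. Psmd14 (0.79) and Psma3 (0.78) had the highest median correlation with the other members, and Psmd5 (-0.50), Psmd3 (-0.44), Psmd9 (-0.25), Psmd2 (-0.15) and Psmc5 (-0.11) the lowest. The tested chaperones of assembly, and Psmd2 and Psmc5, which are called several times below, were thus outside the shared movement. Psmd1, also called several times, had a median correlation of 0.14. Whether calls and shared movement are related was not tested.

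In WT livers after MMS, most calls came from a few genes of the base: Psmd2, Psmd1 and Psmc5, each at several times, and Psmc6 at 48 h. Every time was compared with the same WT untreated arrays, so calls of a gene at several times are not independent. Whether base genes were called more often than other members was not tested. At 6 h 0 members were higher and 1 was lower, against 7.05% of all genes higher and 9.22% lower (16.3% called). By 12 h 1 member was higher and 5 were lower, against 10.9% and 10.2% (21% called). At 24 h the counts were 0 and 3, against 6.63% and 7.2% (13.8% called), and at 48 h they were 1 and 3, against 6.32% and 8.11% (14.4% called). The shares of members called, 2.78%, 16.7%, 8.33% and 11.1%, did not exceed those of all genes at any time. Member medians were -0.06, -0.21, -0.14 and -0.02, beside 0.02, 0.04, 0.04 and 0.03 for all genes. Without quantile normalisation the member medians at 6 h and 48 h turned to 0.07 and 0.08, where the median of all genes was 0.11 and 0.12, and that scaling moved the median of all genes at 24 h by 0.11.

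**Figure D3:**
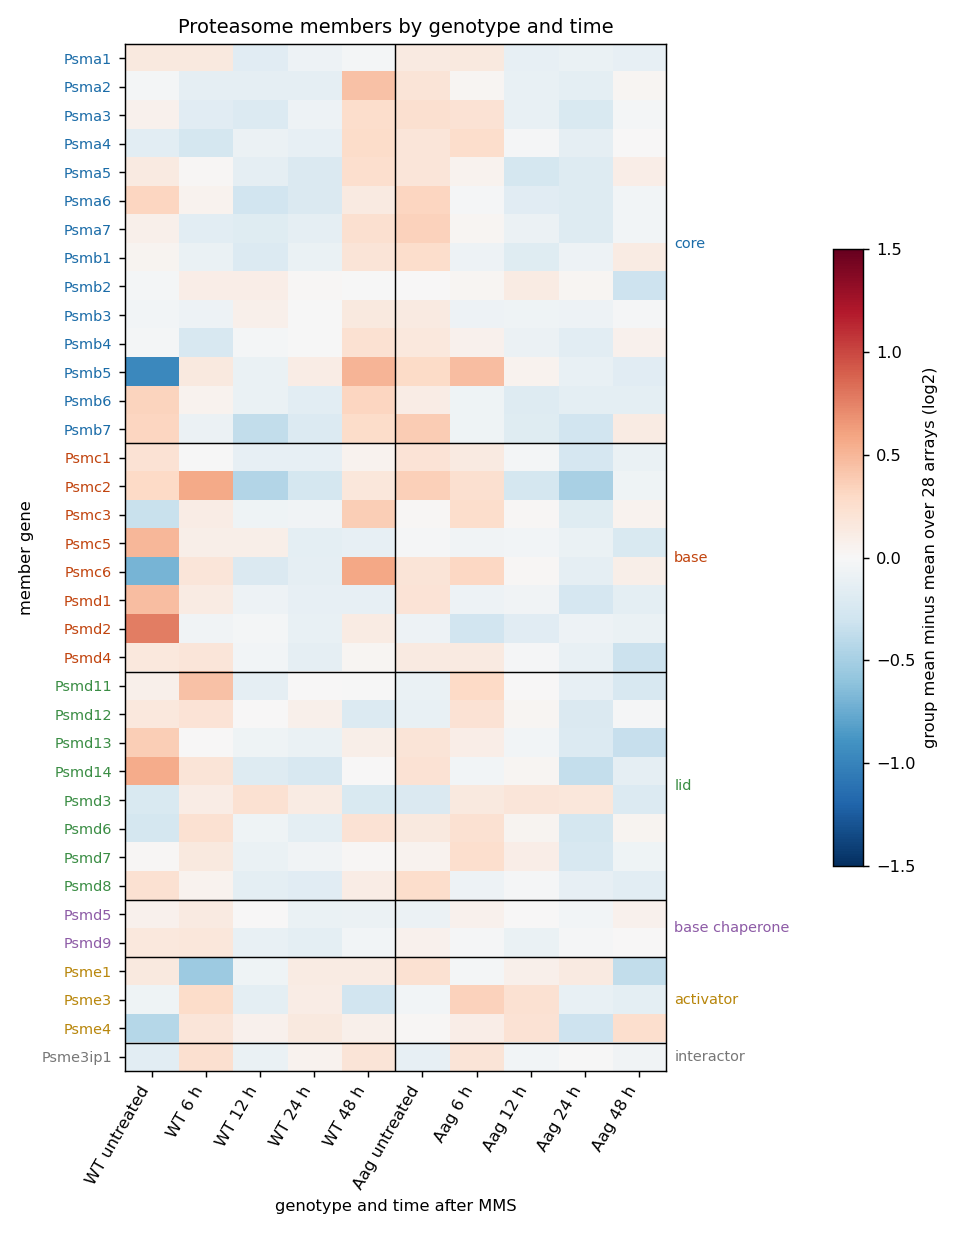
Group mean minus the mean over 28 arrays (log2, colour scale) for 36 member genes in rows, ordered by place in the proteasome, and the 10 groups in columns. The WT untreated column stands out, with Psmb5 and Psmc6 low and Psmd2, Psmd1, Psmc5 and Psmd14 high against the other groups.

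Psmd2 (Rpn1), the base scaffold that binds ubiquitin shuttle factors, was the member lower at all 4 WT times. Its signals in WT untreated livers were 5.44, 5.04 and 5.54. After MMS they were 4.45 and 4.58 at 6 h, 4.54, 4.49 and 4.60 at 12 h, 4.47 and 4.45 at 24 h, and 5.08 and 4.31 at 48 h. Treated and untreated arrays did not overlap up to 24 h, and at 48 h replicate 1 lay within the untreated range. The limma differences were -0.82 (SE 0.17, adjusted p = 0.00276), -0.80 (SE 0.15, adjusted p = 0.00095), -0.88 (SE 0.17, adjusted p = 0.00163) and -0.64 (SE 0.17, adjusted p = 0.0152). These correspond to levels 1.77-, 1.74-, 1.84- and 1.56-fold lower. The 48 h call was lost without WT 48 h replicate 2 (-0.25, limma adjusted p = 0.451) and without WT untreated replicate 3 (adjusted p = 0.0517).

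Psmd1 (Rpn2), the second large base scaffold, showed the tightest WT values. Untreated signals were 7.01, 7.21 and 7.23. They were 6.80 and 6.82 at 6 h, 6.61, 6.60 and 6.61 at 12 h, 6.58 and 6.54 at 24 h, and 6.57 and 6.55 at 48 h. Every treated array lay below every untreated one. The difference was called at 12 h (-0.54, SE 0.12, limma adjusted p = 0.00258), 24 h (-0.59, SE 0.13, adjusted p = 0.00476) and 48 h (-0.59, SE 0.13, adjusted p = 0.00438). Without WT 24 h replicate 2 the adjusted p at 24 h was 0.0669.

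Psmc5 (Rpt6), an ATPase of the base, had untreated WT signals of 5.97, 5.77 and 5.23, the last of which lay near the treated arrays. Treated values were 5.19 and 5.31 at 6 h, 5.27, 5.18 and 5.30 at 12 h, 4.98 and 5.06 at 24 h, and 5.11 and 4.96 at 48 h. It was lower at 12 h (-0.41, SE 0.14, limma adjusted p = 0.0383, with overlapping groups), 24 h (-0.64, SE 0.15, adjusted p = 0.00788) and 48 h (-0.62, SE 0.15, adjusted p = 0.00854). The 12 h call was lost when any of the 6 arrays but WT untreated replicate 3 was left out, with adjusted p from 0.0729 to 0.233, the highest of them without WT untreated replicate 1 (-0.25). The 24 h call was lost without either WT 24 h array, with adjusted p of 0.0896 and 0.0572, and the 48 h call without WT 48 h replicate 2 (adjusted p = 0.109).

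Psmc6 (Rpt4), another ATPase, was the single base member higher in WT. Its untreated signals were close together at 5.81, 5.75 and 5.77, and those at 48 h were 6.66 and 7.43. Between them lay 5.96, 6.42 and 6.40 at 12 h and 6.55 and 6.13 at 24 h, while the 6 h arrays read 7.84 and 5.48. The 48 h difference was 1.27 (SE 0.42, limma adjusted p = 0.0442), a 2.42-fold higher level. It was lost when any of the 5 arrays compared was left out, with adjusted p from 0.0513 to 0.359. The ATPases Psmc1, Psmc2 and Psmc3 were not called at any WT time.

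**Figure D4:**
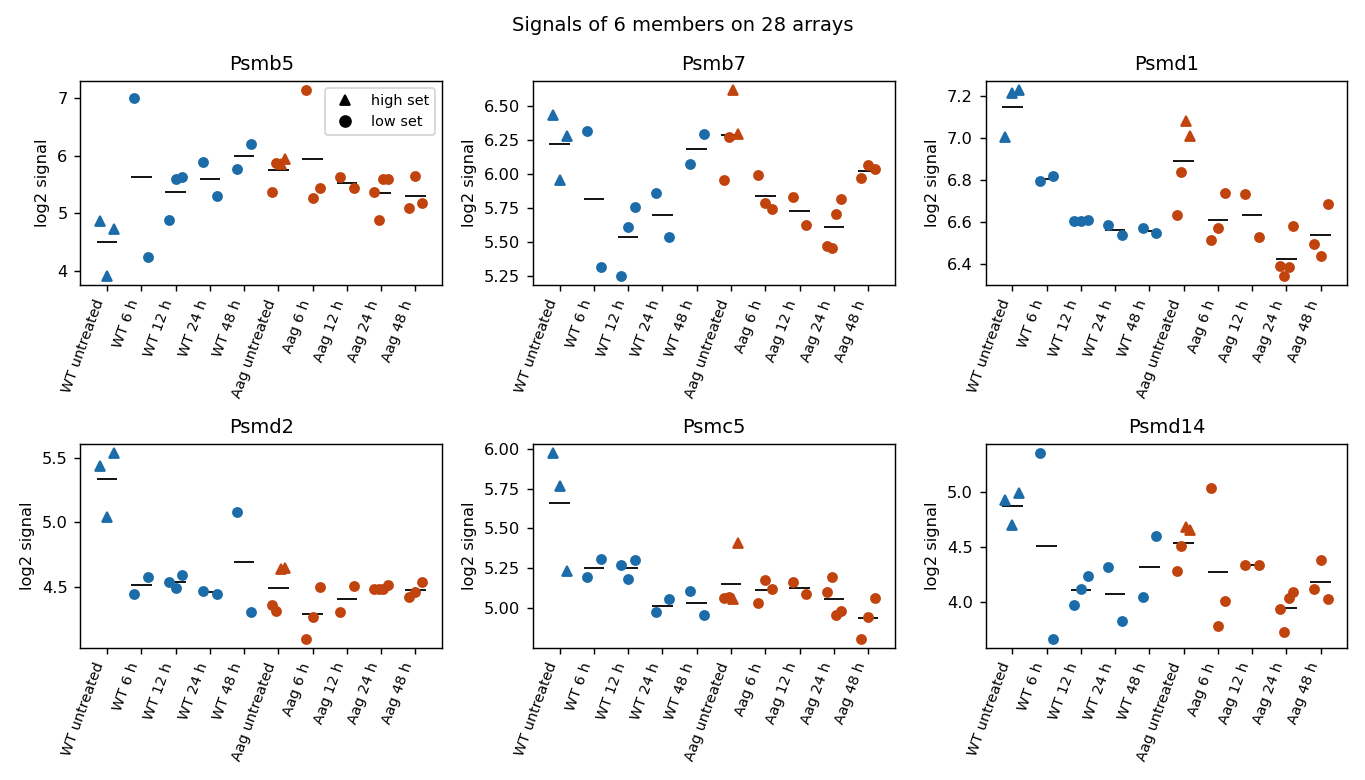
Log2 signals of the catalytic subunits Psmb5 and Psmb7, the base members Psmd1, Psmd2 and Psmc5 and the lid deubiquitinase Psmd14, one point per array, by genotype and time after MMS. Bars are group means and triangles mark high-set arrays, and Psmd2 is above 5.0 on the 3 WT untreated arrays and on WT 48 h replicate 1.

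By the kept probe sets, 2 of the 14 core subunits were called in WT, both lower at 12 h; second probe sets of Psmb4 and Psmb1 are described below. Psmb7, which carries the trypsin-like activity, read 6.43, 5.96 and 6.28 untreated and 5.25, 5.61 and 5.76 at 12 h, with no overlap (-0.68, SE 0.20, limma adjusted p = 0.0196). At 48 h its signals were back at 6.08 and 6.29, and the difference was -0.04 (SE 0.23, adjusted p = 0.933). The alpha subunit Psma6 read 7.61, 8.17 and 7.41 untreated and 7.20, 7.11 and 7.09 at 12 h (-0.60, SE 0.21, limma adjusted p = 0.0448). Psma6 lost its call when any of the 6 arrays but WT untreated replicate 3 was left out (adjusted p 0.0655 to 0.232), and Psmb7 without WT untreated replicate 1 (0.0853) or WT 12 h replicate 1 (0.11).

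Psmb6, the caspase-like subunit, had no call. Its WT signals were 7.13, 7.32 and 6.82 untreated, 7.05 and 6.58 at 6 h, 6.66, 6.61 and 6.72 at 12 h, 6.70 and 6.50 at 24 h, and 7.05 and 7.11 at 48 h. Arrays at 12 h and 24 h lay below all untreated ones, with differences of -0.43 (SE 0.16, limma adjusted p = 0.0686) and -0.49 (SE 0.18, adjusted p = 0.0796). Signals at 48 h were back in the untreated range.

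Psmb5, the chymotrypsin-like subunit, depended on the probe set. The one kept has an identifier with the suffix Affymetrix gives to probes that can match several transcripts. Its WT signals were 4.87, 3.91 and 4.73 untreated, 7.00 and 4.25 at 6 h, 4.88, 5.59 and 5.63 at 12 h, 5.88 and 5.30 at 24 h, and 5.77 and 6.20 at 48 h. Untreated arrays lay below all arrays at 12 h, 24 h and 48 h, yet the differences of 0.86, 1.09 and 1.48 were not called (limma adjusted p = 0.217, 0.193 and 0.0678, SE 0.49 to 0.54). The second probe set, of nearly the same mean signal, stayed between 4.99 and 5.76 on all 28 arrays. Its WT differences were -0.02, 0.16, 0.06 and 0.16, where the first gave 1.12, 0.86, 1.09 and 1.48. Other suffixes mark the kept probe sets of Psmb7, Psma3, Psmb4 and Psmd12 (f), Psmc3 (i) and Psmd9 (r). The second probe set of Psmd11 also has a suffix (r). How specific these probe sets are was not tested. In all, 5 genes had several tested probe sets (Psmb1, Psmb4, Psmb5, Psmc3 and Psmd11), which at WT 48 h had the same sign for 1 of them, Psmb5. None of the 5 was called by its kept probe set.

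With every probe set tested on its own, 3 of these genes passed by a second, dimmer probe set, and the members called were 2, 9, 4 and 5 at the 4 WT times, against 18.2%, 22.2%, 15.3% and 16.5% of all probe sets. Psmb4, a non-catalytic subunit of the beta ring, was lower at every WT time by its second probe set. It read 4.73, 4.97 and 5.18 untreated, 4.17 and 4.61 at 6 h, 4.43, 4.44 and 4.46 at 12 h, 4.28 and 4.36 at 24 h, and 4.46 and 4.38 at 48 h. Every treated array lay below every untreated one. The limma differences were -0.57 (adjusted p = 0.00635), -0.51 (0.004), -0.64 (0.00254) and -0.54 (0.00842), with SE of 0.12 to 0.13. The kept probe set of Psmb4 gave -0.22, -0.00, 0.03 and 0.26, none of them called. With array set as a term the second probe set differed by -0.55, -0.49, -0.62 and -0.52, with adjusted p of 0.0946 to 0.196. Its 6 h call was lost without WT 6 h replicate 1 (-0.35, adjusted p = 0.103) and that at 48 h when WT 48 h replicate 2 was left out (adjusted p = 0.0878).

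The other 2 passed at 12 h alone. Psmb1, another beta ring subunit, was lower at WT 12 h by its second probe set, at 5.63, 5.76 and 5.81 against 5.95, 5.91 and 6.32 untreated (-0.32, SE 0.12, limma adjusted p = 0.0466), where the kept one gave -0.25. The lid subunit Psmd11 was higher, at 5.14, 5.12 and 5.01 against 4.39, 4.29 and 4.42 untreated (0.72, SE 0.22, limma adjusted p = 0.022), where the kept one gave -0.22. With array set as a term Psmd11 differed by 0.00 and Psmb1 by -0.33 (adjusted p = 0.997 and 0.401). Each of these calls was lost in 4 of the 6 fits that left out an array, with adjusted p of 0.0678 to 0.234 for Psmb1 and 0.0504 to 0.0659 for Psmd11.

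Of the 8 lid subunits 1 was called in WT by its kept probe set. Psmd3 (Rpn3), a scaffold of the lid, read 6.72, 6.63 and 6.81 untreated and 7.05, 7.25 and 7.19 at 12 h (0.45, SE 0.15, limma adjusted p = 0.0417, a 1.36-fold higher level). The call was lost without any of the 6 arrays but WT untreated replicate 3 (adjusted p 0.0592 to 0.131). Psmd14 (Rpn11), the deubiquitinase, read 4.92, 4.70 and 4.99 untreated, 5.35 and 3.67 at 6 h, 3.98, 4.12 and 4.24 at 12 h, 4.32 and 3.83 at 24 h, and 4.05 and 4.60 at 48 h. All arrays from 12 h on lay below the untreated ones, by -0.75 (SE 0.30), -0.80 (SE 0.34) and -0.55 (SE 0.34), with limma adjusted p of 0.0771, 0.12 and 0.292.

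The activators had 0 calls in WT by limma. Psme1, a subunit of the interferon-induced PA28 ring, read 6.49, 5.92 and 6.44 untreated and 6.05 and 5.14 at 6 h, a difference of -0.69 (SE 0.25, limma adjusted p = 0.0629). At later times its difference ran from -0.21 to -0.02. Psme3, the nuclear PA28 gamma, read 4.46, 4.47 and 4.60 untreated and 5.01 and 4.71 at 6 h, without overlap (0.35, SE 0.21, limma adjusted p = 0.284). The 2 tested chaperones, Psmd5 and Psmd9, which hold base subunits before assembly, were not called either.

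Calls in WT did not hold with a term for array set. With a term for array set, for which the Aag untreated livers are the single group in both sets, 0 members were called at each of the 4 WT times. The share of all genes called in that fit is not given here, so this count describes the fit and not the members. Psmd2 then differed by -0.52, -0.49, -0.57 and -0.33 (limma adjusted p 0.222 to 0.461), and Psmd1 at 12 h, 24 h and 48 h by -0.24, -0.28 and -0.28 (0.375 to 0.538). Psmd3 at 12 h turned to -0.13 (SE 0.19, adjusted p = 0.831). The term rests on the 4 Aag untreated arrays and widened the errors, as for Psmd3 at 12 h, whose SE was 0.15 without it. Whether a call was lost through a smaller difference or a wider error was not tested. The array sets' part in the WT calls could not be separated further.

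Without both 6 h arrays numbered 1, a choice made after seeing the data, more genes were called across the array, and the SE of Psmb5 in the WT 48 h response went from 0.54 to 0.28. Members called rose to 14 at WT 6 h (background 30%), 13 at 12 h (31.3%), 11 at 24 h (23%) and 10 at 48 h (24.9%). The 14 at 6 h were all lower and rest on the single remaining WT 6 h array, assumed to vary like the other groups. Among them Psmb7 differed by -0.91 (SE 0.22, limma adjusted p = 0.00541), Psmd14 by -1.20 (SE 0.22, adjusted p = 0.000767) and Psme1 by -1.15 (SE 0.28, adjusted p = 0.00516). At 48 h Psmb5 by its kept probe set was higher by 1.48 (SE 0.28, adjusted p = 0.000715) and Psmc6 by 1.27 (SE 0.18, adjusted p = 5.1e-05). All 18 calls of the full fit, over both genotypes, held under this choice. Only the call of Psmd2 at WT 6 h used a 6 h group, so the other calls kept their differences and changed only in SE. The arrays were left out after their member values were seen to stand apart. Neither the calls that held nor those gained are therefore separate evidence.

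In Aag livers the untreated arrays straddled both sets, and few genes were called over the whole array. At 6 h 0 of 36 members were called by limma (0.51% of all genes), and at 12 h 0 were called (0.437%). At 24 h 0 were higher and 1 was lower, against 0.474% and 0.601% of all genes (1.08% called), and at 48 h again 0 and 1, against 0.31% and 0.601% (0.911% called). Member medians were -0.05, -0.20, -0.32 and -0.17. At 24 h 31 of 36 members were below the untreated mean, against 46.6% of all genes, with 13 of 14 core, 7 of 8 base and 7 of 8 lid subunits. At 48 h 30 of 36 were below it, including 14 of 14 core subunits, against 48.3% of all genes. Against the 2 low-set untreated arrays alone, these counts were 28 of 36 at 24 h, with 13 of 14 core subunits and a member median of -0.20, and 27 of 36 at 48 h, with 10 of 14 core subunits and a member median of -0.10. The core median at 48 h was -0.26 against all 4 untreated arrays and -0.08 against these 2, with Psma1, Psma3, Psma5 and Psmb1 above 0. At 6 h 13 of 36 members, and at 12 h 21 of 36, were below the low-set untreated mean, against 53.3% and 50.2% of all genes. At 24 h and 48 h 50.7% and 49.3% of all genes were below that mean. Without quantile normalisation the member median at 6 h, against all 4 untreated arrays, was 0.03, where the median of all genes was 0.08.

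Psmd1 was the member lower at 24 h. Its Aag untreated signals were 6.63 and 6.84 on the low-set arrays and 7.08 and 7.01 on the high-set arrays. At 24 h they were 6.39, 6.34, 6.39 and 6.58, all below the untreated arrays (-0.46, SE 0.10, limma adjusted p = 0.0317). At other times they were 6.52, 6.57 and 6.74 at 6 h, 6.74 and 6.53 at 12 h, and 6.49, 6.44 and 6.69 at 48 h. Within the low set the 24 h difference was -0.31 (SE 0.11, limma adjusted p = 0.187). Without the female-typical arrays this difference was -0.34 (SE 0.13, limma adjusted p = 0.87). The call was also lost in 5 of the 8 fits that left out an array, with adjusted p from 0.0868 to 0.122.

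Psmd4 (Rpn10), the ubiquitin receptor of the base, was lower at 48 h. It read 6.89, 6.83, 6.89 and 6.93 in Aag untreated livers and 6.34, 6.42 and 6.50 at 48 h, with a clear gap between the groups (-0.46, SE 0.10, limma adjusted p = 0.0318). At 24 h it read 6.59, 6.47, 6.69 and 6.79, still below every untreated array but not called. Within the low set the 48 h difference was nearly the same at -0.44 (SE 0.12), with an adjusted p of 0.145. Without the female-typical array it was -0.46 (SE 0.11, adjusted p = 0.136). The call was lost in 5 of 7 fits that left out an array (adjusted p 0.0947 to 0.162).

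None of the catalytic subunits was called in an Aag response by limma. Psmb7 read 5.95, 6.27, 6.61 and 6.29 in Aag untreated livers and 5.47, 5.45, 5.71 and 5.82 at 24 h, with no overlap (-0.67, SE 0.17, limma adjusted p = 0.0587). At 6 h and 12 h it read 5.99, 5.78 and 5.75, and 5.83 and 5.62, and by 48 h it was at 5.97, 6.07 and 6.04. Psmb6 read 6.61, 6.73, 7.05 and 7.10 untreated and differed by -0.18 to -0.31 over the 4 times. Psmb5 read 5.37, 5.86, 5.85 and 5.93 untreated, 7.13, 5.26 and 5.43 at 6 h, 5.63 and 5.43 at 12 h, 5.37, 4.88, 5.59 and 5.60 at 24 h, and 5.09, 5.64 and 5.18 at 48 h. Its kept probe set differed by -0.45 at 48 h where the second probe set differed by 0.36, both without a call.

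Psmd14 read 4.28, 4.51, 4.68 and 4.65 in Aag untreated livers and 3.94, 3.74, 4.04 and 4.09 at 24 h, without overlap (-0.58, SE 0.26, limma adjusted p = 0.29). Psme1 read 5.73, 6.29, 6.64 and 6.80 untreated and 5.81, 5.67 and 5.83 at 48 h, where untreated replicate 1 overlapped the treated arrays (-0.59, SE 0.21, adjusted p = 0.158). Psme3 ran from 3.96 to 5.10 in Aag untreated livers, a spread that covered all treated Aag arrays. Without both 6 h arrays numbered 1, 7 members were called at Aag 24 h, all lower (background 4.61%): Psma6, Psmb7, Psmc1, Psmc2, Psmd1, Psmd14 and Psmd8. At 48 h they were Psmd4 and Psmd8 (5.81%). In the low set alone and without these 2 arrays, Psmb7 was lower (-0.50, SE 0.14, limma adjusted p = 0.0444) and Psme3ip1 higher (0.36, SE 0.08, adjusted p = 0.0169) at 24 h (6.29%), and Psmd4 was lower at 48 h (-0.44, SE 0.10, adjusted p = 0.0273, 2.37%).

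**Figure D5:**
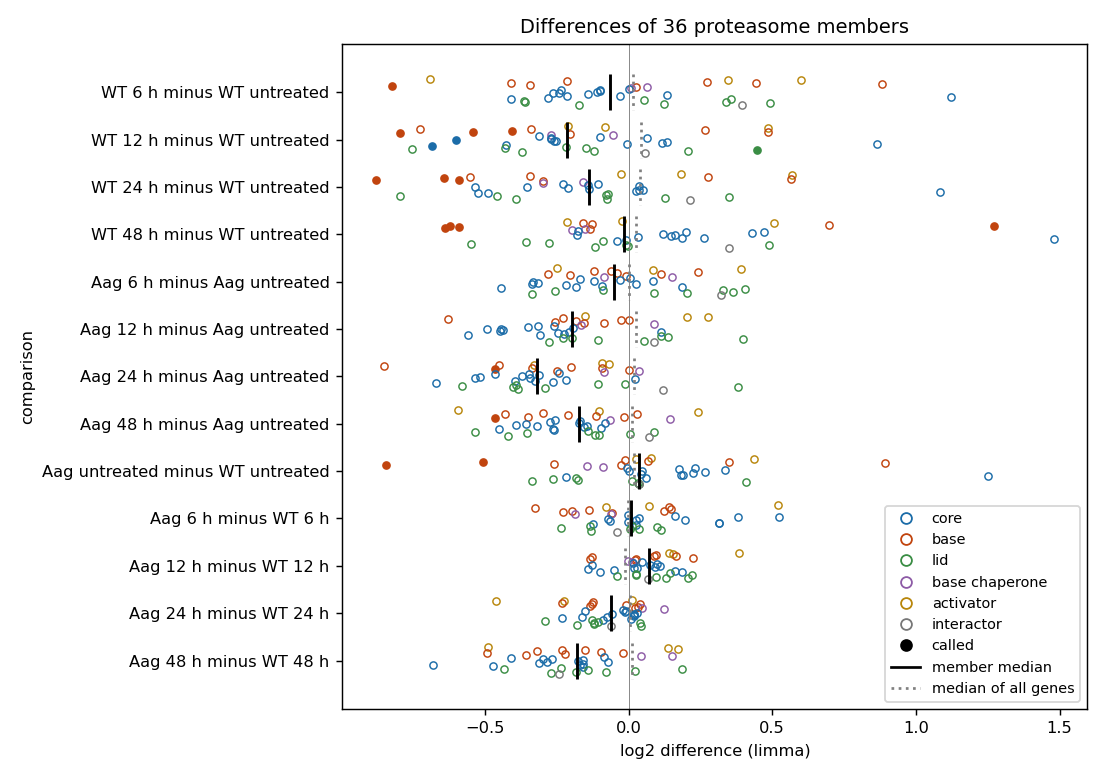
Log2 differences of the 36 members in 13 comparisons, one point per gene, coloured by place in the proteasome and filled where called at a limma adjusted p under 0.05. Solid bars are member medians and dotted bars medians of all genes, and the member median lies lowest at Aag 24 h (-0.32).

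Untreated livers of the genotypes differed in 2 members. Of 36, 0 were higher and 2 were lower in Aag, against 2% and 2.5% of all genes (4.5% called), and the member median was 0.04. Psmd2 read 4.36, 4.32, 4.64 and 4.65 in Aag untreated livers, below all 3 WT untreated arrays (-0.85, SE 0.14, limma adjusted p = 0.00325, 1.80-fold lower). With array set as a term the difference was -0.69 (SE 0.16, adjusted p = 0.0237), the single member call left (3.1% of all genes called). Aag untreated Psmd2 signals lay at the level of the treated groups of both genotypes, whose means ran from 4.29 to 4.70. Psmc5 read 5.06, 5.07, 5.06 and 5.41 in Aag untreated livers and was lower by -0.51 (SE 0.13, limma adjusted p = 0.0258), with overlap, and its adjusted p was 0.129 with array set as a term. The call for Psmc5 was lost in 4 of the 7 fits that left out an array, without WT untreated replicate 1 (-0.35, adjusted p = 0.141) or 2 (0.0931) and without Aag untreated replicate 1 (0.067) or 2 (0.064). By its second probe set, with every probe set tested (4.98% called), Psmb4 was also lower in Aag, at 4.53, 4.45, 4.43 and 4.59 against the WT untreated signals above (-0.46, SE 0.11, limma adjusted p = 0.0212). That call was lost with array set as a term (-0.45, adjusted p = 0.0734) and without WT untreated replicate 2 (0.0508) or 3 (0.077) or Aag untreated replicate 2 (0.052). Psmb5 differed by 1.25 with the kept probe set (SE 0.45, adjusted p = 0.115) and by -0.05 with the other. Without both 6 h arrays numbered 1, 5 members were called, with Psmb5 and Psmc6 (0.89) and the lid subunit Psmd6 (0.41) added as higher (12.3%).

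After MMS no member was called between the genotypes. At 6 h, 12 h, 24 h and 48 h limma called 0 members (0.182%, 0.0182%, 0% and 0% of all genes). Medians of Aag minus WT were 0.01, 0.07, -0.06 and -0.18. At 48 h 30 of 36 members were lower in Aag, with 14 of 14 core and 8 of 8 base subunits, against 47.7% of all genes. Psmd4 (-0.36, SE 0.12), Psmb6 (-0.47, SE 0.18) and Psmb2 (-0.31, SE 0.14) had an unadjusted limma p under 0.05 at 48 h. Each was without overlap and had a limma adjusted p of 0.998. The shares of all genes with such an unadjusted p or without overlap are not given here. These values are therefore a description and not a result about the members. The 48 h median was -0.34 without WT 48 h replicate 1 and -0.05 without WT 48 h replicate 2, the array with the lowest control mean after the 6 h arrays numbered 1. Without both 6 h arrays numbered 1, 2 core subunits were higher in Aag at 6 h, Psma4 (1.12, SE 0.22, limma adjusted p = 0.0196) and Psmb4 (0.79, SE 0.16, adjusted p = 0.021), against 1.77% of all genes.

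The difference between the responses of the genotypes was tested as an interaction. Limma called 0 members at 6 h, 12 h, 24 h and 48 h (0.237%, 0.164%, 0.0364% and 0.2% of all genes). Psmd2 had the highest interaction at all 4 times, 0.62, 0.71, 0.88 and 0.62. Psmb5, by its kept probe set here and below, had the lowest, -0.93, -1.09, -1.48 and -1.93. The second probe set of Psmb5 had the opposite sign at 6 h, 24 h and 48 h. The values of Psmd2 and Psmb5 share the untreated arrays across times. At 24 h the Psmd2 value had an SE of 0.22 and a limma adjusted p of 0.167. At 48 h 14 of 14 core subunits were below 0, and the median over all members was -0.26, beside -0.002 for all genes. The core subunits share these arrays and moved together from array to array, so their count is a description. Without both 6 h arrays numbered 1, Psmb5 (-1.93, SE 0.37, adjusted p = 0.00874) and Psmc6 (-1.39, SE 0.23, adjusted p = 0.0057) passed at 48 h (3.54% of all genes). The WT response within these interactions carries the array sets described above.

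Comparisons among treated arrays stay within the low set. Limma called 0 members for 24 h against 6 h and 48 h against 6 h in WT (0.492% and 0.747% of all genes) and in Aag (0.146% and 0.2%). The medians were -0.17 and 0.06 in WT and -0.24 and -0.20 in Aag. These turn on the 6 h arrays. Without both arrays numbered 1 the WT medians were 0.27 and 0.52, with 7 members called at 24 h (16.5%) and 13 at 48 h (22.1%), all higher than at 6 h, and the Aag medians were -0.08 and 0.04, with 0 called. Psma2 (1.20, SE 0.19), Psmb4 (1.13, SE 0.16) and Psmc6 (1.57, SE 0.24) had the smallest adjusted p at WT 48 h, against 1 remaining WT 6 h array.

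Genes that work with the proteasome were taken from lists of immunoproteasome subunits, proteasome assembly factors and regulators, and the ubiquitin pathway. All 3 immunoproteasome subunits, which replace the catalytic subunits in immune cells and under interferon, were tested. Psmb9 was lower at 12 h (-0.48, SE 0.12, limma adjusted p = 0.00576) and 48 h (-0.39, SE 0.13, adjusted p = 0.0494) in WT and at 48 h in Aag (-0.56, SE 0.11, adjusted p = 0.0208). It was also lower in Aag at 48 h than at 6 h (-0.67, SE 0.12, adjusted p = 0.0119), a comparison within the low set. Psmb8 and Psmb10 were not called in any response.

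Of 10 tested assembly factors and regulators, 1, 2, 2 and 1 were higher and 2, 2, 1 and 1 lower at the 4 WT times, when 16.3%, 21%, 13.8% and 14.4% of all genes were called. Psmg4, a chaperone of core assembly, was higher at each, by 0.38 to 0.43, and was also higher in Aag untreated than in WT untreated livers (0.49, SE 0.10, limma adjusted p = 0.00951). Nfe2l1, the transcription factor of proteasome genes, was higher at 12 h (0.32, SE 0.11, adjusted p = 0.0417) and 24 h (0.41, SE 0.12, adjusted p = 0.0273). Sem1, a small lid protein, was lower at 6 h (-1.41, SE 0.34, adjusted p = 0.0082) and 12 h (-1.11, SE 0.31, adjusted p = 0.0139). Txnl1, a thioredoxin-like protein bound to the regulatory cap, was lower at all 4 times, by -1.30 to -1.65. In the 4 Aag responses limma called 0 of the 10, against 0.437% to 1.08% of all genes.

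Of 32 tested ubiquitin pathway genes, 1, 0, 0 and 0 were higher and 3, 2, 2 and 1 lower at the 4 WT times, or 12.5%, 6.25%, 6.25% and 3.12% called, below the shares of all genes just given. Limma called 0 of them in the Aag responses. Ube2c, the conjugating enzyme of mitotic proteolysis, was lower at each WT time, by -0.42 to -0.88, and in Aag untreated livers by -0.51 (SE 0.13, limma adjusted p = 0.0235). Its interaction at 48 h was 0.95 (SE 0.20, adjusted p = 0.0481). Sqstm1 (p62), a receptor that carries ubiquitinated proteins to autophagy, was lower at 12 h (-0.59, SE 0.13, adjusted p = 0.00269) and 24 h (-0.67, SE 0.14, adjusted p = 0.00326). Among treated arrays alone it was lower at 24 h than at 6 h in WT (-0.74, SE 0.16, adjusted p = 0.0279) and in Aag (-0.70, SE 0.12, adjusted p = 0.0191), and at 48 h than at 6 h in Aag (-0.65, SE 0.13, adjusted p = 0.0343). The WT responses of these lists set low-set against high-set arrays, as for the subunits.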

How the data were processed

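Total liver RNA of 28 samples was measured on Affymetrix MG-U74Av2 arrays, and the authors deposited 1 value per probe set and array, taken as log2 signals because values ran from 0.689 to 13.16. Image reading, probe summary and scaling were not stated. Of 12488 probe sets, 66 controls were left out. Array medians spread over 0.215, so the other 12422 were quantile normalised. A single symbol was given for 10833, several for 396 and none for 1193. All 50 member probe sets were found in the reference by gene identifier, with 0 symbols changed.

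Each gene was represented by its brightest probe set. Of 8251 genes, 5487 were brighter than the median of the array on 2 or more arrays and were tested with limma 3.58.1 (R 4.3.3), with 1 mean for each of 10 groups over 28 arrays, 18 residual degrees of freedom, a trend of variance on mean signal, and p-values adjusted by Benjamini-Hochberg within each of 21 comparisons. The code was tested on simulated data. Figures were drawn with matplotlib 3.10.9.

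The members and the gene lists were chosen with earlier results of these data known. The text names Psmb5, Psmb6, Psmb7, Psmd14, Psme1 and Psme3 always, up to 3 called members in each direction per comparison by size, called members whose probe sets differ in sign, and up to 3 called genes of each list, in each direction and for each genotype. Other members and list genes were named after their values were seen. Over arrays of different groups with the same replicate number, deviations had a median correlation of -0.03 (106 pairs), against 0.02 for different numbers, so arrays were left unpaired. No 2 arrays held identical values.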

Additional observations from a re-analysis of the deposited data

Results flagged for a closer look

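A group of 4 arrays was combined with each named member and with the member median, in 28 combinations. In these, 3 arrays stood apart from the other 3 of their group by Dixon's criterion, where chance alone sets apart about 1 in 20 groups. The combinations share their arrays and are not independent. Psmb5 in Aag untreated replicate 1 was 5.37, below the others at 5.85 to 5.93. Psmc5 in Aag untreated replicate 4 was 5.41, above the others at 5.06 to 5.07. Psmd2 in Aag 24 h replicate 4 was 4.51, above the others at 4.48 to 4.49, a gap that is small because the other values nearly coincide.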

How the results depend on the processing

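Of 18 member calls, 18 held without the brightness filter, with the mean of a gene's probe sets, with every probe set tested, and without both 6 h arrays numbered 1, while 14 held on values as deposited, with median centring and with the replicate block, 15 with array weights, 12 without the female-typical arrays, 7 with only the groups compared and 1 with array set as a term. The 6 lost without the female-typical arrays were Psma6 and Psmc5 at WT 12 h, Psmc6 at WT 48 h, Psmd1 at Aag 24 h, Psmd4 at Aag 48 h and Psmc5 between untreated genotypes (limma adjusted p 0.0515 to 0.87). Groups of 2 to 4 arrays limit all of these, and where a group was left with 1 array it was assumed to vary like the others. The low set alone could not be run where WT untreated arrays are needed. Where the cause of a change is not given, it was not tested.

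The share of all genes called also changed between fits. It is not given here, nor for the arrays left out in turn below. Counts of members therefore describe the fits and are not results about the members. Counts of members called that changed by more than 1.5 times were as follows. With array set as a term they were 0 at all 4 WT times and at Aag 24 h and 48 h, and 1 between untreated genotypes, and Psmd3 at WT 12 h turned to -0.13 (limma adjusted p = 0.831). Array weights gave 0 at WT 6 h, 5, 7 and 6 at Aag 12 h, 24 h and 48 h, 1 between untreated genotypes, 1 for the interaction at 24 h and 2 for Aag 48 h against 6 h. Only the groups compared gave 0, 1 and 2 at WT 6 h, 24 h and 48 h, 0 at Aag 24 h and 48 h, and 0 between untreated genotypes. At WT 6 h, every probe set tested gave 2 and the mean of the probe sets 5. Values as deposited gave 3 at WT 12 h and 0 at Aag 48 h, and median centring 0 at Aag 48 h. The replicate block gave 0 at Aag 48 h and left the other counts within 1.5 times. Without the female-typical arrays the counts were 0 at Aag 24 h and 48 h and 1 between untreated genotypes. The low set alone gave 0 at Aag 24 h and 48 h, and together with leaving out both 6 h arrays numbered 1 it gave 2 at Aag 24 h. Without both 6 h arrays numbered 1 the counts were 14, 13, 11 and 10 at the WT times, 7 and 2 at Aag 24 h and 48 h, 5 between untreated genotypes, 2 between genotypes at 6 h, 2 for the interaction at 48 h, and 7 and 13 for WT 24 h and 48 h against 6 h.

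Leaving out each array in turn gave 1 to 10 at WT 6 h, 2 to 7 at 12 h, 1 to 4 at 24 h and 1 to 3 at 48 h, 0 to 2 at Aag 24 h, 0 to 4 at Aag 48 h, 1 to 2 between untreated genotypes, 0 to 7 between genotypes at 6 h, 0 to 1 for the interactions at 6 h and 24 h, 0 to 3 for WT 24 h against 6 h and 0 to 9 for WT 48 h against 6 h, and 0 to 0 in the other 9 comparisons. The 10, 7 and 9 came without WT 6 h replicate 1.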
